A study of Mus musculus with 2 samples.

Results

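The 10 genes *Lgals1*, *Tmsb4x*, *Tmsb10*, *S100a6*, *S100a10*, *S100a11*, *Anxa2*, *Anxa5*, *Vim* and *Mif* were followed across endothelial cells of the postnatal mouse retina. They were chosen by symbol, after *Lgals1* had come out as the leading gene of the cluster the study calls Primitive, and the other 9 were grouped with it by family and by cytoskeletal or secreted role. All 10 were found in both count tables, out of 19813 gene symbols that had a row in both. Because the clusters were made from these same cells and the set was selected on a cluster difference, every value that sets a cluster beside the rest is a description of these cells and not a test.

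The cells came from retinas of wild-type C57BL/6 mice at postnatal day 6 (P6) and at postnatal day 15 (P15), with no transgene, deletion or treatment in either group. Single cells were sorted by FACS for CD31, an endothelial surface protein, and against CD45, a protein of blood leukocytes, and 1 droplet library was made per age. A unique molecular identifier (UMI) on each captured transcript lets copies made by amplification count once. Cluster labels were those published by the study, available here for all 1560 labelled P6 cells and for 438 P15 cells. The remaining 1284 P15 labels were not used here.

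Around 12000 cells were used per sample, and the library of P6 held 13958124 UMIs in 1984 barcodes and that of P15 11589641 UMIs in 2141 barcodes. Most values below come from cells that passed a filter made from the study's stated exclusion criteria (mitochondrial share up to 5%, *Hbb-bt*, *Neurod1* and *Cd63* all undetected, and limits of 200 and 3500 on RNA counts, read here as detected genes). It did not select the same cells as the study, since 161 labelled P6 cells and 29 labelled P15 cells failed it. There were 1424 such cells at P6 (4985.5 UMIs in the median cell) and 1644 at P15 (4214.5 UMIs). A list of 8 endothelial genes (*Pecam1*, *Cdh5* and others) summed to 10128.5 UMIs per 1000000 (CPM) in the passing P6 cells and 15648.6 CPM in the passing P15 cells, with none of the 8 at 0. A list of 8 pericyte and smooth muscle genes summed to 11.4 CPM and 274 CPM. The median share of ribosomal protein UMIs per cell was 18.5% at P6 and 10.2% at P15, and 7 barcodes occurred in both libraries. With 1 library per age there is no replicate, so no test across samples was possible and the difference between ages cannot be told apart from a difference between 2 libraries. Intervals given here are 95% intervals of counting error alone.

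The genes belong to small protein families that handle actin, calcium and membranes. The thymosins encoded by *Tmsb4x* and *Tmsb10* bind actin monomers and hold them out of filaments, so that a cell that changes its shape or moves has a store of actin at hand. S100 proteins are small calcium sensors that bind other proteins as pairs, and annexins bind acidic phospholipids when calcium is present; S100A10 and annexin A2 form a complex at the plasma membrane that gathers plasminogen and its activator. Galectin 1, the product of *Lgals1*, is a sugar-binding lectin that is exported without a signal peptide and is known in vessel growth. Vimentin is the intermediate filament of endothelial and mesenchymal cells, and MIF is a small secreted cytokine whose receptors include CD74 and the chemokine receptor CXCR4.

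In the GENCODE M21 annotation of mouse build GRCm38, all 10 are protein-coding genes, and 4 of them lie on chromosome 3. *S100a6* spans chr3:90612882-90624181 on the plus strand, *S100a11* spans chr3:93520488-93526287 on the plus strand and *S100a10* spans chr3:93555080-93564643 on the plus strand. *Anxa5* lies at chr3:36448923-36475894 on the minus strand and *Anxa2* at chr9:69453620-69491795 on the plus strand. *Lgals1* lies at chr15:78926725-78930465 on the plus strand, *Vim* at chr2:13573927-13582826 on the plus strand and *Mif* at chr10:75859353-75860240 on the minus strand. *Tmsb10* lies at chr6:72957347-72958748 and *Tmsb4x* at chrX:167207093-167209315, both on the minus strand. The thymosin genes are thus unlinked, and only *Tmsb4x* is on a sex chromosome.

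Promoter sequences from RefSeq (build GRCm38.p6) were matched for 8 of the 10 genes, all but *Lgals1* and *S100a10*. The 250 bases before the start site are printed for the thymosin pair, whose balance shifted between ages and clusters, for *S100a6* and *Mif*, which were lower at P15, and for *S100a11*, a gene of the *S100a6* family on the same chromosome that did not pass the rule. Capitals mark letters that match a searched motif on either strand. The letters searched were TATAAA for the TATA box, CCAAT for the CCAAT box, GGGCGG for the GC box, TGANTCA for the AP-1 site, CACGTG for the MYC E-box and GGAATG for the TEAD site.

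*Tmsb4x*, chrX:167209219-167209468, minus strand: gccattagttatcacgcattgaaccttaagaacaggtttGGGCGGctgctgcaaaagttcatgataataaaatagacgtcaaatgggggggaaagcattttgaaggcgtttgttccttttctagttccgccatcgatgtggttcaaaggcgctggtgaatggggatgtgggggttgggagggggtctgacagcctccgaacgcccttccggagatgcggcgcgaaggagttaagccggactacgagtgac
*Tmsb10*, chr6:72958749-72958998, minus strand: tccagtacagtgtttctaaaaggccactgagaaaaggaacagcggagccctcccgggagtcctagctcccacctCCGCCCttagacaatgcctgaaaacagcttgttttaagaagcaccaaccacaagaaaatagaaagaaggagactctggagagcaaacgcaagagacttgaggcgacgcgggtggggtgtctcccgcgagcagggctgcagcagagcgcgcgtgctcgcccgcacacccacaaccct
*S100a6*, chr3:90612644-90612893, plus strand: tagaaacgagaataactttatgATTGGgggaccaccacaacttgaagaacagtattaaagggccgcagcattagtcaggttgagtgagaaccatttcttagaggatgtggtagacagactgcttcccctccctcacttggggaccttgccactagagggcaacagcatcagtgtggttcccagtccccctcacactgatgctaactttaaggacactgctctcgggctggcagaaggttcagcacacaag
*S100a11*, chr3:93520246-93520495, plus strand: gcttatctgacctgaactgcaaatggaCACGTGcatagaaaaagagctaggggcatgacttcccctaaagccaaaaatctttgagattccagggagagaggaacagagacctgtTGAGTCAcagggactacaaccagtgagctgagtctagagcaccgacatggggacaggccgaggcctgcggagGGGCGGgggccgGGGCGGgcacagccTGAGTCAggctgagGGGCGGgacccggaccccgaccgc
*Mif*, chr10:75860278-75860527, minus strand: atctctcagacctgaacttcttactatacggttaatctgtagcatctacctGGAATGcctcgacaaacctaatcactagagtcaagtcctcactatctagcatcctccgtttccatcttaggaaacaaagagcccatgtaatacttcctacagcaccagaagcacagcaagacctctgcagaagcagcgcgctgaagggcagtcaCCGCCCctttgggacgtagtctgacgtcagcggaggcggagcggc

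The thymosin promoters each held 1 GC box and none of the other motifs, at 211 to 206 bases before the start site in *Tmsb4x* and, on the opposite strand, at 176 to 171 bases in *Tmsb10*. The promoter of *S100a11* held 3 GC boxes, 2 AP-1 matches and 1 MYC E-box, whereas that of *S100a6* held a single CCAAT box. The *Mif* promoter held 1 GC box and 1 TEAD match. Among all 32851 RefSeq promoters of this length, 32.7% held a GC box, 33.8% a CCAAT box, 6.75% an AP-1 match, 6.02% a MYC E-box, 12.6% a TEAD match and 12.4% a TATA box. CpG dinucleotides numbered 15 in the *Tmsb4x*, 14 in the *Tmsb10* and 3 in the *S100a6* window, beside a median of 6 over all promoters. A match of letters is a description of the sequence and does not show that a factor binds there.

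The first comparison asked how the level of each gene differed between the P6 and the P15 library. *S100a6*, *Lgals1*, *Mif* and *Tmsb10* were lower at P15 by more than 1.5-fold with an interval that did not include 1, and none of the 10 was higher by that rule. Of 7455 genes with at least 200 UMIs over both libraries, 9.68% were lower and 16.6% were higher by the same rule. The median gene had a P15 to P6 ratio of 1.09 (0.13 on the log2 scale), while the median of the 10 genes was 0.842. Intervals lay below 1 for 8 of the 10 and above 1 for *S100a10* and *Anxa5*. The share of all genes with such intervals was not computed, so these counts are not read as a result about the set. With many UMIs a small difference is enough, as for *Tmsb4x* at a ratio of 0.929 (0.921 to 0.936).

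**Figure D1:**
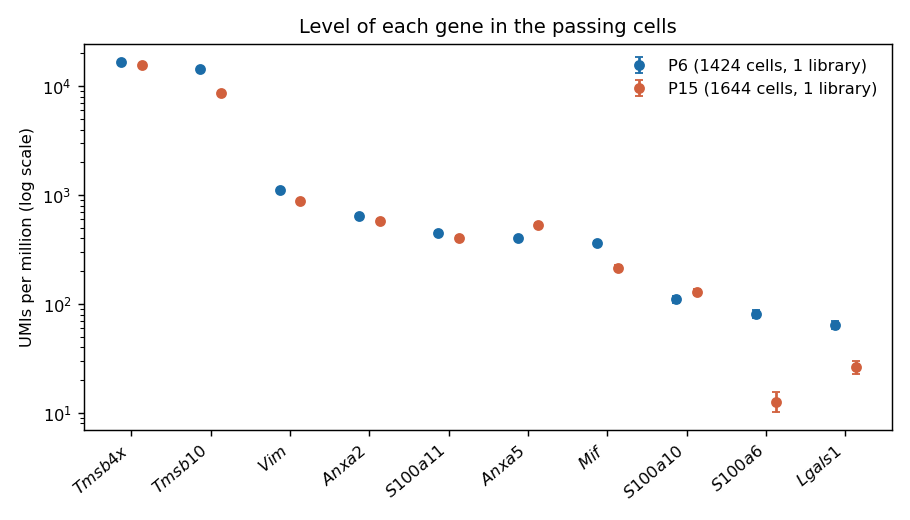
Level of each of the 10 genes in UMIs per 1000000 (CPM, log axis) in the passing cells of the P6 library (blue) and the P15 library (orange), with exact Poisson 95% intervals that cover counting error only. The levels span from 16758 CPM for *Tmsb4x* at P6 to 12.6 CPM for *S100a6* at P15, and the largest gap between the ages is that of *S100a6*.

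*S100a6*, a calcium sensor expressed in many growing cells, had the largest difference. Its level was 81.5 CPM at P6 (623 UMIs) and 12.6 CPM at P15 (93 UMIs), a ratio of 0.155 (0.123 to 0.193). Only 0.657% of the genes compared had a lower ratio. With the *Cd63* criterion left out of the filter, the ratio was 0.301. A UMI of the gene was found in 18.7% of P6 cells (16.7 to 20.8) and 4.68% of P15 cells (3.71 to 5.82), and with each cell thinned to 3000 UMIs in 14.1% of 1245 and 3.44% of 1163 cells.

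*Lgals1* had a level of 64.5 CPM at P6 (493 UMIs) and 26.3 CPM at P15 (194 UMIs), a ratio of 0.408 (0.344 to 0.483). This difference depended on the cells kept. With the *Cd63* criterion left out of the filter the ratio was 0.926 (0.826 to 1.04), and over every barcode it was 0.783 (0.712 to 0.861). The 193 P15 barcodes with a *Cd63* UMI held *Lgals1* at 393 CPM and the pericyte and smooth muscle list at 6086 CPM, whereas the 220 such P6 barcodes held 137 CPM and 284 CPM. Among passing P15 cells the pericyte list summed to 1001 CPM in the 134 cells with an *Lgals1* UMI and 192 CPM in the 1510 without; among passing P6 cells the sums were 24.3 CPM and 8.05 CPM. In passing cells without any UMI of that list, 1381 of 1424 at P6 and 1153 of 1644 at P15, the *Lgals1* ratio was 0.340 (0.273 to 0.420). This choice took out more P15 than P6 cells, and P15 cells with *Lgals1* carried more of the list. What pericyte RNA adds to the *Lgals1* level was not tested.

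Shares of cells with an *Lgals1* UMI were 17.5% at P6 (15.6 to 19.6) and 8.15% at P15 (6.87 to 9.58), and 13.5% and 6.45% after thinning. Free RNA in droplets can give such UMIs in cells that do not express a gene, and the 98 P6 barcodes with a UMI of *Neurod1*, a transcription factor of retinal neurons, gave a measure of it. In these barcodes an *Lgals1* UMI was found in 17.3% (10.4 to 26.3) at a median of 5568 UMIs and an *S100a6* UMI in 19.4% (12.1 to 28.6), and after thinning in 9.09% and 6.49%. Unthinned, the shares over all passing P6 cells lay within the intervals of the neural barcodes and are not read as shares of expressing cells. At equal depth both shares were higher in the passing cells than in the *Neurod1* barcodes. Only 77 of these barcodes could be thinned and no interval was computed for their shares, so a gap beyond counting error is not shown. The *Neurod1* barcodes also carried the endothelial list at 3427 CPM, so that they were not free of endothelial RNA. The levels in the *Neurod1* barcodes, 39.4 CPM for *Lgals1* and 45.1 CPM for *S100a6*, were below those of the passing P6 cells. In the 17 P15 barcodes with *Neurod1* neither gene had a UMI, where a limit of 3 counts is 21.9 CPM and the upper end of the exact interval 26.9 CPM.

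*Mif*, the secreted cytokine, had a level of 364 CPM at P6 and 216 CPM at P15, a ratio of 0.592 (0.557 to 0.630), and 6.41% of the genes compared had a lower ratio. The 98 P6 barcodes with *Neurod1* held *Mif* at 932 CPM and the retinal neuron list at 5478 CPM, so that *Mif* was also abundant in neural barcodes; the passing P6 cells held that list at 74.3 CPM. Whether neural RNA adds to the *Mif* of endothelial barcodes was not tested.

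*Tmsb10* had a level of 14261 CPM at P6 and 8704 CPM at P15, a ratio of 0.610 (0.604 to 0.616). With both libraries given the cluster shares of the labelled P6 cells the ratio was 0.681, which did not pass the rule. This gene is also in the list of venous genes that the study used for its venous score. Its paralogue *Tmsb4x* stood at 16758 CPM and 15560.3 CPM, a ratio of 0.929 (0.921 to 0.936), which did not pass the rule. At P6 the thymosin transcripts ranked first and second of 20002 genes by UMIs, and at P15 they ranked 3 and 5 of 19997. Together they made up 3.10% of all UMIs at P6 and 2.43% at P15.

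The other 5 genes did not pass 1.5-fold. *S100a11* measured 452 and 406 CPM (ratio 0.898), *Anxa2* 648 and 581 CPM (ratio 0.897) and *Vim* 1125 and 886 CPM (ratio 0.787). *S100a10*, the partner of annexin A2, measured 110.5 CPM at P6 and 128 CPM at P15 (ratio 1.16, 1.055 to 1.27). *Anxa5*, a phospholipid-binding annexin best known as a probe of dying cells, measured 400.4 CPM and 536 CPM (ratio 1.34, 1.28 to 1.40). Divided by the ratio of the median gene, *S100a10* stood at 1.06 and *Anxa5* at 1.22, while *Tmsb4x* stood at 0.850 and *Vim* at 0.720.

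**Figure D2:**
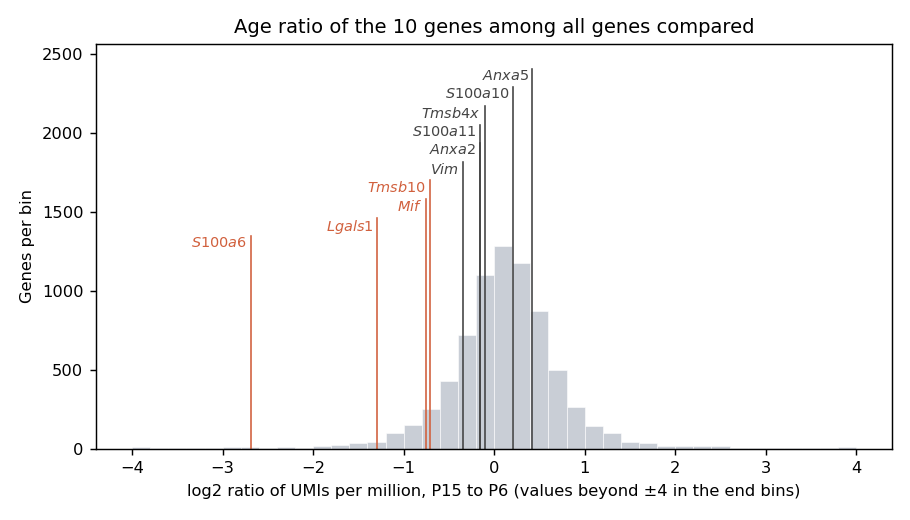
Histogram of the log2 ratio of CPM, P15 to P6, over 7455 genes (grey bars, genes per bin), with a line for each of the 10 genes (orange where lower by more than 1.5-fold, dark grey otherwise). *S100a6* lies far to the left of the bulk of genes at a ratio of 0.155, *Lgals1* follows at 0.408, and *Anxa5* at 1.34 is the rightmost of the set.

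The second comparison set the clusters of the P6 library side by side. In the 155 cells called Primitive, *Lgals1*, *Mif*, *S100a6*, *S100a10* and *S100a11* were higher than in all other labelled P6 cells by more than 1.5-fold, where 6.05% of 5871 genes were higher and 32.1% lower by that rule and the median gene had a ratio of 0.820. *Lgals1* reached 168 CPM there (143 to 196), 3.05 times the level of the other cells, and ranked first of 2634 genes that had 50 or more UMIs among Primitive cells. *Mif* (815 CPM, ratio 2.45) ranked 5, *S100a6* (186 CPM, ratio 2.43) ranked 6, *S100a10* (218 CPM, ratio 2.14) ranked 21 and *S100a11* (842 CPM, ratio 2.04) ranked 29. The thymosins stood at 1.41 times (*Tmsb4x*) and 1.40 times (*Tmsb10*) the level of the other cells, *Anxa2* at 1.27 and *Anxa5* at 1.07. *Vim*, at 0.781 times, was the single gene of the set with an interval below 1. The Primitive cells also had the highest median ribosomal share of the P6 clusters, 25.3%, and the lowest sum of the endothelial list, 5580 CPM. With mitochondrial and ribosomal protein genes left out of the total, *Lgals1* stood at 3.32 times the other cells and *Mif* at 2.67. *S100a6* stood at 2.65, *S100a10* at 2.33 and *S100a11* at 2.22, and *Tmsb4x* (1.54) and *Tmsb10* (1.53) then also passed the rule. Beyond this change of total, the part of either in these ratios was not tested.

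With labels predicted from nearest neighbours without the 10 genes or their families, the Primitive ratio of *Lgals1* was 3.05 and that of *S100a6* 3.20. The prediction was trained on the published labels of these cells and shared 127 of 155 Primitive cells with them, so it is not independent. With each cell thinned to 3000 UMIs, 30.97% of the 155 Primitive cells held an *Lgals1* UMI, followed by 20.0% of Proliferative and 18.6% of Tip cells, with Cap-Venous cells lowest at 5.15%. The same share of Primitive cells held an *S100a6* UMI, followed by 25.0% of 32 Arterial and 23.6% of 195 Proliferative cells. Venous (5.41% of 37) and Cap-Venous cells (5.67% of 388) were lowest, and no interval was computed for thinned shares. By level, Tip cells came after Primitive cells for *S100a6* at 132 CPM, and Cap-Venous cells were lowest at 35.3 CPM. No cell of the Primitive cluster held a UMI of *Pdgfrb*, *Acta2*, *Myh11* or 4 other genes of the pericyte list, which summed to 1 UMI there.

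In the P6 order of *Lgals1* levels, Primitive was followed by Tip cells, the migrating cells at the vascular front, with 98.3 CPM (80.8 to 119). Stalk (73.4 CPM), Proliferative (71.7 CPM), Venous (66.8 CPM) and Capillary (57.4 CPM) cells followed with overlapping intervals. Cap-Arterial (33.5 CPM), Arterial (25.3 CPM) and Cap-Venous (23.7 CPM) cells were lowest and did not differ beyond counting error, the Arterial value resting on 5 UMIs. *Mif* had a different order, with Primitive above Proliferative cells (525 CPM) and the arterial clusters lowest (176 CPM in Cap-Arterial cells, 162 CPM in Arterial cells).

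**Figure D3:**
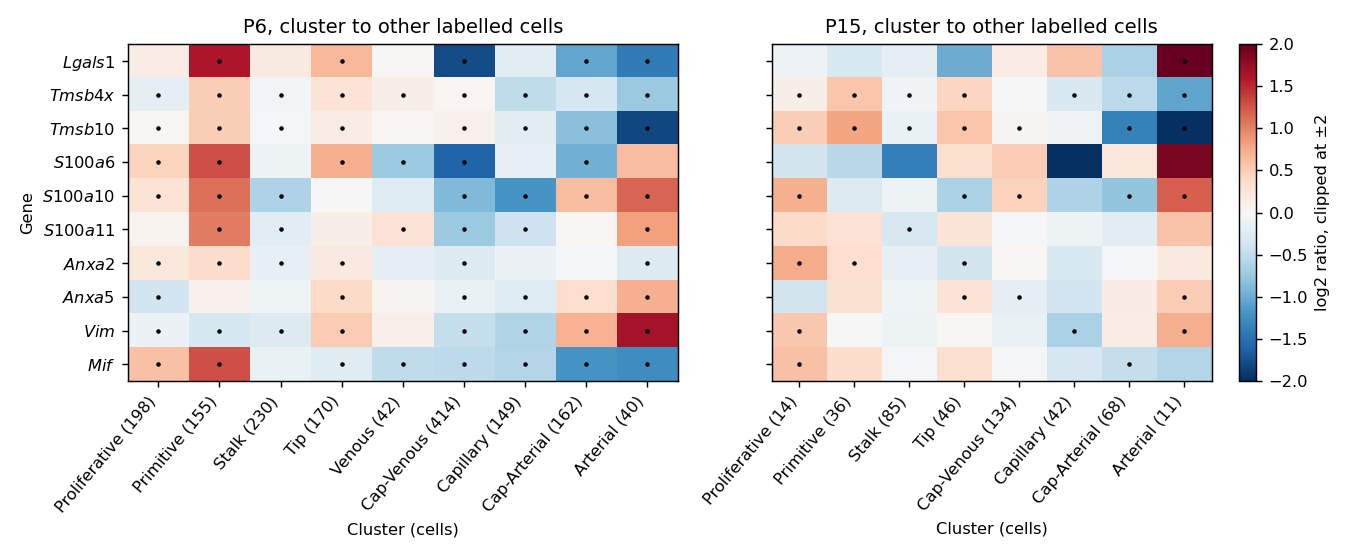
Log2 ratio of CPM in a cluster to all other labelled cells of the same library (colour, clipped at ±2), for the 10 genes (rows) in the clusters with at least 10 labelled cells (columns, number of cells in parentheses), at P6 (left) and P15 (right). A black dot marks a 95% counting interval that does not include 1; at P6 the red block in Primitive cells holds *Lgals1* at 3.05 times the other cells, and the Arterial column is split between *Vim* at 3.16 and *Tmsb10* at 0.282 times.

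The 40 Arterial cells of P6 divided the set. *Vim* (3492 CPM, ratio 3.16), *S100a10* (248 CPM, ratio 2.25), *S100a11* (789 CPM, ratio 1.76) and *Anxa5* (658 CPM, ratio 1.63) were higher than in the other labelled cells, where 11.6% of genes were higher. *Tmsb10* (4104 CPM, ratio 0.282), *Lgals1* (ratio 0.379), *Mif* (ratio 0.422) and *Tmsb4x* (10304 CPM, ratio 0.600) were lower, where 8.65% of genes were lower. *S100a6* (132 CPM, ratio 1.53, 0.991 to 2.25) and *Anxa2* (547 CPM, ratio 0.825, 0.676 to 0.998) passed in neither direction. In the 162 Cap-Arterial cells *Vim* (ratio 1.62) and *S100a10* (ratio 1.53) were also higher, where 11.1% of genes were higher. *Lgals1*, *Mif*, *S100a6* and *Tmsb10* were lower there, where 9.73% of genes were lower. *S100a10* and *S100a11* were both higher in Primitive and in Arterial cells of P6. Capillary cells were lowest for *S100a10* (51.6 CPM) and Cap-Venous cells for *S100a11* (306 CPM).

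Markers of other cell types in these Arterial cells rested on single genes. The retinal neuron list summed to 1215 CPM, of which *Stmn2* gave 233 of 240 UMIs, and the glia list summed to 1564 CPM, all 309 UMIs from *Glul*.

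In the 36 Primitive cells labelled at P15, *Tmsb10* was higher than in the other labelled P15 cells (14833 CPM, ratio 1.72, 1.64 to 1.81), 1 of the 8 genes with enough UMIs, where 11.8% of 1998 genes were higher. *Lgals1* there rested on 2 UMIs (16.1 CPM, ratio 0.814, 0.0953 to 3.14) and *S100a6* on 1 UMI. *S100a10* (ratio 0.819, 0.462 to 1.35), *S100a11* (ratio 1.22, 0.926 to 1.58) and *Mif* (ratio 1.27, 0.865 to 1.81) had intervals that included 1. The P15 Primitive cells were shallower, with a median of 2705 UMIs against 5148 at P6, and held the retinal neuron list at 468 CPM against 20.2 CPM and the pericyte list at 234 CPM, from 1 gene of that list, against 1.06 CPM.

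Within clusters, the age ratios of several genes pointed the same way in all 8 clusters that had at least 10 labelled cells at both ages. *Tmsb10* was lower at P15 in 8 of 8 with every interval below 1, from a ratio of 0.849 (0.803 to 0.896) in Proliferative to 0.273 (0.204 to 0.359) in Arterial cells. *S100a6* was lower in 8 of 8, with 7 intervals below 1. In the Primitive cluster it went from 175 UMIs at P6 to 1 UMI at P15, a ratio of 0.0434 (0.00109 to 0.245). In the 42 P15 Capillary cells it had no UMI, where a limit of 3 counts is 28.4 CPM and the upper end of the exact interval 34.9 CPM, beside 78.4 CPM at P6. *Mif* was lower in 8 of 8 with 4 intervals below 1, and its ratio was smallest in Primitive cells at 0.327 (0.223 to 0.463). *Anxa5* was higher in 8 of 8 with 5 intervals above 1, and its ratio was largest in Primitive cells at 1.58 (1.24 to 2.005). Over all genes compared within a cluster, the median ratio was lowest in Arterial cells at 0.789 and highest in Cap-Venous cells at 1.04.

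*Lgals1* was lower in 7 of 8 clusters with 4 intervals below 1. The ratio was 0.0962 in Primitive (0.0116 to 0.353), 0.107 in Tip (0.0218 to 0.322) and 0.241 in Stalk cells (0.0947 to 0.516). Cap-Venous cells, the lowest cluster at P6 but not at P15, had 23.7 CPM at P6 and 20.95 CPM at P15, a ratio of 0.885 (0.477 to 1.55). At P15 the range over clusters with at least 10 cells ran from 10.6 CPM in Tip to 81.5 CPM in Arterial cells, the latter on 4 UMIs.

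*S100a10* ran in opposite directions. Its level in Cap-Venous cells was 70.3 CPM at P6 and 190 CPM at P15, a ratio of 2.70 (2.16 to 3.38), and the ratios in Stalk (1.89, 1.35 to 2.62) and Proliferative cells (1.88, 1.21 to 2.82) were also above 1. In Cap-Arterial cells it was 165 CPM and 95.8 CPM, a ratio of 0.580 (0.375 to 0.871), and in Primitive cells 0.593 (0.333 to 0.987). Over all labelled cells, from which these cluster ratios come, the ratio was 1.38 (1.22 to 1.56). *Anxa2*, whose protein binds S100A10, had ratios of 1.047 (0.941 to 1.16) in Cap-Venous and 0.90 (0.755 to 1.07) in Cap-Arterial cells.

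*Vim* was lower at P15 in the arterial clusters and in Tip cells. The ratios were 0.455 (0.355 to 0.576) in Arterial, 0.603 (0.533 to 0.681) in Cap-Arterial and 0.628 (0.551 to 0.712) in Tip cells. In Primitive cells the ratio was 1.06 (0.870 to 1.28). In Cap-Venous cells the ratio was 1.02 (0.940 to 1.11), and in Proliferative cells it was 1.28 (1.08 to 1.51). The *Vim* level of Arterial cells was 3492 CPM at P6 and 1589 CPM at P15, while that of Cap-Venous cells was 899 and 920.5 CPM, so the span between these clusters was narrower at P15. *S100a11* was 0.594 in Primitive (0.451 to 0.770) and 1.33 in Cap-Venous cells (1.17 to 1.52).

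**Figure D4:**
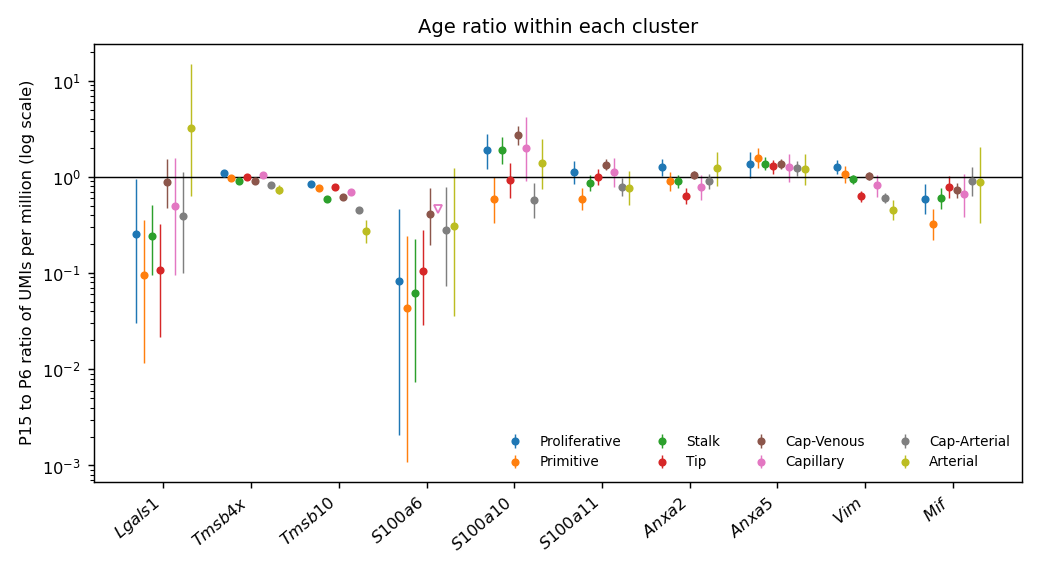
P15 to P6 ratio of CPM (log axis) of each of the 10 genes within each of the 8 clusters (colours), with 95% counting intervals; an open triangle is the upper limit where the P15 count was 0. All *Tmsb10* points lie between 0.273 and 0.849, all *S100a6* points below 1, and the *S100a10* points lie on both sides of 1, from 0.580 to 2.70.

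The balance of the thymosin transcripts was taken as *Tmsb4x* UMIs over *Tmsb10* UMIs in the same cells, which does not depend on the library total, although capture can differ between transcripts. In all passing cells it was 1.18 (1.17 to 1.19) at P6 and 1.79 (1.77 to 1.81) at P15. Among P6 clusters it was 0.987 in Capillary (0.953 to 1.02), 1.053 in Proliferative and 1.16 in Cap-Venous cells, and it was higher in Cap-Arterial (1.63, 1.58 to 1.68) and Arterial cells (2.51, 2.31 to 2.73). At P15 it was 1.36 in Proliferative, 1.70 in Cap-Venous, 2.93 in Cap-Arterial (2.75 to 3.14) and 6.80 in Arterial cells (5.11 to 9.20, 11 cells). It was higher at P15 than at P6 in each of the 8 clusters, and no interval of a cluster overlapped between the ages. Arterial cells gave the smallest part of their UMIs to the pair, 1.44% at P6 and 0.874% at P15, and Primitive cells the largest, 4.25% and 3.73%.

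**Figure D5:**
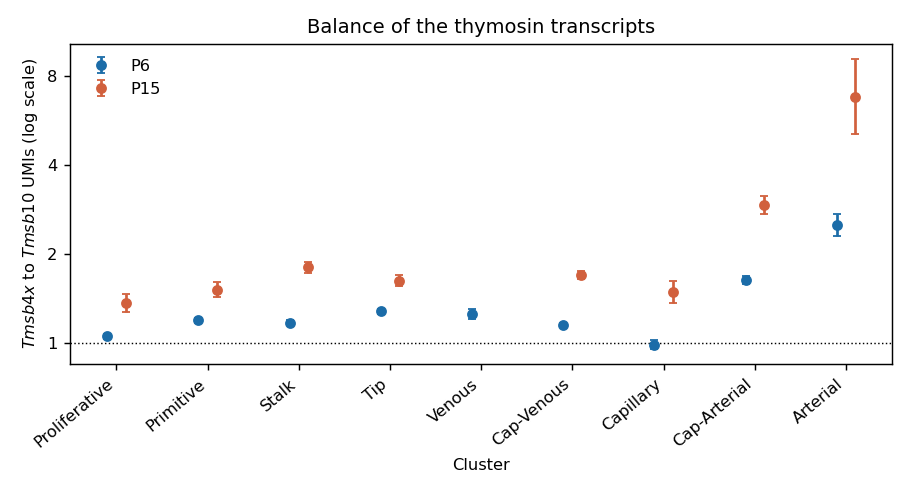
*Tmsb4x* UMIs divided by *Tmsb10* UMIs (log axis) in each cluster with at least 10 labelled cells at P6 (blue) and P15 (orange), with 95% counting intervals. The ratio is higher at P15 in all 8 clusters measured at both ages, and rises from near 1 in P6 Capillary cells to 2.51 in P6 and 6.80 in P15 Arterial cells.

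*Tmsb10* reads can be shared with *Gm9844*, a near-identical copy that held 420 UMIs at P6 and 234 UMIs at P15, and *S100a11* with 2 copies that held 32 and 40 UMIs. *Tmsb4x* lies on the X chromosome. In passing P6 cells with an *Xist* UMI and no Y-linked UMI (246 cells) its level was 14173 CPM, beside 16757 CPM in 339 cells with a Y-linked UMI and no *Xist*; at P15 the levels were 14471 CPM (96 cells) and 15505 CPM (821 cells). At both ages the level of *Tmsb4x* was lower in the cells with *Xist*. For the genes lower at P15, the ratios of cells with *Xist* to cells with Y-linked UMIs follow, at P6 and P15. They were 0.777 and 0.474 for *Lgals1*, 0.720 and 0.423 for *S100a6*, 0.918 and 1.01 for *Tmsb10* and 1.02 and 1.085 for *Mif*. In the 96 P15 cells with *Xist* the levels were only 12.2 CPM for *Lgals1* and 4.87 CPM for *S100a6*. These rest on few UMIs and no interval was computed, so a gap beyond counting error is not shown for either gene. The ages differed in the make-up of the passing cells by sex, and its part in the age ratios was not tested.

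Single cells differed in how many carried each gene. *Tmsb4x* and *Tmsb10* had medians of 80 and 70 UMIs per passing P6 cell and were found in all but 2 and 1 of the 1424 cells. *Lgals1* and *S100a6* were found in few cells and unevenly: the 15 cells with the most UMIs, 1% of the passing P6 cells, held 20.9% of the *Lgals1* UMIs and 22.6% of the *S100a6* UMIs, beside 3.51% for *Tmsb4x* and 6.09% for *Vim*. Up to 11 *Lgals1* UMIs and 22 *S100a6* UMIs came from a single passing P6 cell. At P15 no passing cell held more than 8 *Lgals1* or 3 *S100a6* UMIs.

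Across cells thinned to 3000 UMIs, the thymosins were the most closely related of the 45 pairs, with a Spearman rho of 0.498 over 1392 labelled P6 cells and 0.609 over 1163 passing P15 cells. The points share a library and its depth. The other 44 pairs lay between −0.132 (*Tmsb10* with *Vim*) and 0.285 (*S100a6* with *S100a11*) at P6. Within single P6 clusters the thymosin rho was 0.559 in Stalk, 0.316 in Tip, 0.224 in Cap-Venous and 0.213 in Primitive cells. It was not the highest of the pairs in Tip cells (*S100a11* with *Vim*, 0.342) or in Primitive cells (*Tmsb4x* with *S100a11*, 0.273), and *S100a11* with *Anxa2* reached the same 0.224 in Cap-Venous cells. *Lgals1* and *S100a6* were found together in 57 of 1392 labelled P6 cells, where the product of their shares gave 28.9 cells, and in 14 of 205 Stalk cells, where it gave 4.78. Within Primitive cells, the counts were 17 found and 14.9 from the product.

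Over the 9 P6 clusters, the genes whose log2 level was most like that of *Lgals1*, by Pearson r over 9 points and among 3198 genes, were *Pkm* (0.850), *Ppa1* (0.849), *Ptpa* (0.843), *Kcne3* (0.831) and *Ssr4* (0.826). *Pkm* encodes the glycolytic enzyme pyruvate kinase, and *Ppa1* a pyrophosphatase. *Kcne3*, a potassium channel subunit, measured 92.9 CPM in Primitive and 15.97 CPM in Cap-Venous cells. Among the members, *Anxa5* and *Vim* were most alike over the 9 clusters (r of 0.901), followed by *S100a10* and *S100a11* (0.880) and by the thymosins (0.854).

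The wider families are given as counts past the same rule, beside the 9.68% lower and 16.6% higher among all genes compared. Of 6 S100 genes compared between ages, 1 was lower (*S100a6*) and 1 was higher, *S100a1*, at 24.6 CPM and 44.8 CPM (ratio 1.82). *S100a13* (ratio 1.49) and *S100a16* (ratio 0.938) passed in neither direction. Of 7 annexins, *Anxa3* (399 and 641 CPM, ratio 1.61) and *Anxa4* were higher and *Anxa1* (167 and 104 CPM, ratio 0.619) was lower, with a list median of 1.32. Of 4 galectins *Lgals1* alone was lower and none was higher, and *Lgals9*, the most abundant of the others, measured 153 and 194 CPM (ratio 1.27). Beyond the 3 most abundant genes of a list, *Anxa4*, *Lmnb2*, *Synm*, *Arpc1b* and *Myl9* are named because a list had 5 or fewer genes past the rule, a choice made after their values were seen.

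Of 4 thymosins and prothymosins, 2 were lower, *Tmsb10* and *Ptma* (2844 and 1811 CPM, ratio 0.637), which encodes the chromatin-associated prothymosin alpha; *Ptms* had a ratio of 0.958. Of 26 genes for actin and its binding proteins, none was lower and 2 were higher, *Arpc1b* (ratio 1.55) and *Myl9* (ratio 2.61, 16.5 and 43.0 CPM), with a list median of 1.11. *Actb* had a ratio of 0.737 and *Cfl1*, the filament-severing cofilin, 0.889.

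Of 6 intermediate filament genes, the nuclear lamins *Lmnb1* (143 and 32.2 CPM, ratio 0.225) and *Lmnb2* were lower and *Synm*, a filament linker, was higher (ratio 2.24), while *Lmna* had a ratio of 1.03. Of 4 genes of the MIF axis, 3 were lower: *Mif*, the receptor gene *Cd74* (94.3 and 2.85 CPM, ratio 0.0302) and *Cxcr4* (40.5 and 17.4 CPM, ratio 0.428). *Ddt*, the closest relative of *Mif*, had a ratio of 1.03. *Cd74* is also abundant in leukocytes, whose marker list summed to 2.22 CPM at P6 and 5.97 CPM at P15. That list had no row for *Ptprc*, and whether leukocyte RNA adds to the *Cd74* level was not tested. Within P6, *Cd74* and *Cxcr4* ran against *Mif* in the Primitive cells, with ratios of 0.294 and 0.184 to the other cells. In P6 Arterial cells the ratio of *Cd74* was 3.83 (2.89 to 4.985) and that of *Cxcr4* 1.37 (0.651 to 2.55).

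Among 4 genes listed as partners of annexin A2 and S100A10, not the complex itself, 2 were higher at P15 and none was lower. These were *Plat*, the tissue plasminogen activator (178 and 310 CPM, ratio 1.73), and *Ahnak*, a giant scaffold protein (93.9 and 160.5 CPM, ratio 1.71). In P6 Primitive cells, where *S100a10* stood at 2.14 times the other cells, all 4 were lower, where 32.1% of all genes were lower, with *Plat* at 0.487, *Ahnak* at 0.450 and *Dlc1* at 0.401 times.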

How the data were processed

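Single-cell RNA sequencing libraries of sorted retinal endothelial cells were analysed, 1 at P6 and 1 at P15. The authors deposited 1 table of raw UMI counts per gene and barcode for each library, without a quality filter. The submitters' processing notes name mm10 and Seurat 3.0; the aligner and annotation behind these counts are not given in the sources used here. Ensembl IDs were matched to symbols with GENCODE M21 and 0 columns were left unused. Cluster labels came from the study's source data, where Primordial and Primordial-Proliferative were read as the study's Primitive and Proliferative clusters. The genes and lists were chosen with earlier results of these data known.

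Counts were summed over cells and divided by the summed UMIs. Levels have exact Poisson, shares Clopper-Pearson and ratios conditional binomial 95% intervals, all for counting error only. With 1 library per age no p-value was computed. A gene was called higher or lower at 1.5-fold with an interval that did not include 1, among genes with at least 200 UMIs. Thinning drew 3000 UMIs per cell, which 1245 P6 and 1163 P15 passing cells could give. Near-identical copies shared at least 100 stretches of 31 bases. Doublets were not called here; the gene ceiling of the filter removes some.

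The text names the 10 genes everywhere, up to 3 further genes per family list by UMIs, the 5 genes most like *Lgals1* over P6 clusters among genes of at least 50 CPM, and the marker genes. Predicted labels used 13 components, 15 neighbours and 2000 variable genes. Alternatives were the cells included, fold, UMI minimum, weighting of clusters and genes in the total. The alternative to the UMI minimum required 1 UMI in each library. Cells without pericyte-list UMIs were an alternative chosen after seeing the data. Ratios were tested on simulated counts, and thinning was checked on the P6 counts. Python 3.11.15, numpy 2.4.6, pandas 2.3.3, scipy 1.17.1, scikit-learn 1.9.0 and matplotlib 3.10.9 were used. Promoters were RefSeq's (GRCm38.p6).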

Additional observations from a re-analysis of the deposited data

Results flagged for a closer look

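*S100a10*, whose product partners annexin A2, had P15 to P6 ratios on both sides of 1 within clusters: 1.88 in Proliferative, 1.89 in Stalk and 2.70 in Cap-Venous cells, against 0.593 in Primitive and 0.580 in Cap-Arterial cells. Each interval of counting error lay wholly on its side of 1, and the difference between clusters was not tested, since there was 1 library per age.

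Barcodes removed by the stated filter held several of the genes above the level of the passing cells of the same library. At P6, barcodes with a *Cd63* UMI held *Lgals1* at 137 CPM, *S100a6* at 177 CPM and *Mif* at 711 CPM, and those with a *Neurod1* UMI held *Mif* at 932 CPM. The P6 *Cd63* barcodes also held the retinal neuron list at 2213.5 CPM, beside 74.3 CPM in the passing P6 cells. What neural RNA adds to their levels was not tested. At P15, barcodes with a *Cd63* UMI held *Lgals1* at 393 CPM (14.9 times the passing cells), *S100a6* at 132 CPM (10.4 times) and *S100a11* at 635 CPM (1.56 times). The 131 P15 barcodes with an *Hbb-bt* UMI held *Lgals1* at 54.1 CPM. In the P15 *Cd63* barcodes thinned to 3000 UMIs, *Lgals1* and *S100a6* were found together in 24 of 168, where the product of their shares gave 8.98.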

How the results depend on the processing

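All 10 genes kept the direction of their age ratio under the 11 alternatives of cells, scaling, depth and cluster make-up. The count past 1.5-fold, 4 in the report, was 3 with every barcode and without the *Cd63* criterion (*Lgals1* lost in both), 3 with P6 cluster shares (*Tmsb10* lost), 6 at the lower fold tried and 2 at 2-fold. The lower fold added *Vim* as lower (ratio 0.787) and *Anxa5* as higher (ratio 1.34). The share of all genes past the 1.5-fold rule was 26.2%, and 22.7% among all genes with at least 1 UMI in each library. It was not computed at the other folds. In Primitive P6 cells the count higher than the other labelled cells, 5 in the report, was 8 at the lower fold tried and 5 to 7 under the other P6 alternatives. The share of all genes was not computed for these alternative counts either. Among labelled P15 cells the count was 1, and the *S100a10* ratio there was on the other side of 1 at 0.819. The cause was not tested, and the P15 cluster had 36 cells. No paired analysis was possible because each age had 1 library and no result comes from a test. Depth limits *Lgals1* and *S100a6* most: most of their P15 clusters rest on few UMIs.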
